A study of Mus musculus with 38 samples.

Results

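H3K4me1-alone peaks are places in mouse liver chromatin where H3K4me1, monomethylation of histone H3 at lysine 4, was found in both sexes and where none of H3K4me3, H3K27ac, H3K27me3 and H3K9me3 was called in either sex. They were taken from the male H3K4me1 list, which holds 74275 peaks on the 19 autosomes. A peak was kept if it overlapped a female H3K4me1 peak by 1 bp or more and overlapped no peak or island of those other marks. This left 12293 peaks, 19.5% of the 63009 male peaks shared with the female list, covering 16.3 Mb. The members were chosen by their own peak calls, so the overlaps that define them are a description and not a result. A further mark, H3K36me3, was not part of the choice and divided them into 5260 peaks that overlapped a male H3K36me3 island and 7033 that did not.

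The libraries were made by chromatin immunoprecipitation and sequencing from liver tissue of CD-1 mice aged 8 weeks, males in one group and females in the other, with no treatment named for either. CD-1 is an outbred stock. H3K4me1 had 4 male and 3 female libraries, and the other marks had 2 to 4 per sex. The authors deposited 1 pooled list of peaks for each mark and sex, and this leaves no spread between animals and no test over them. Whether libraries came from separate animals is not given in the labels. Intervals beside percentages are exact Clopper-Pearson 95% intervals over peaks or reads and cover counting error only. Whole liver holds hepatocytes and other cells, and a mark in few cells cannot be told apart from a weak mark in many.

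In mammals H3K4me1 is laid down at enhancers largely by the methyltransferases KMT2C and KMT2D. Acetylation of the same nucleosomes by p300 and CBP, read as H3K27ac, accompanies enhancers in use, and an enhancer with H3K4me1 and no H3K27ac is commonly called primed. H3K27me3 is made by Polycomb repressive complex 2, H3K9me3 marks constitutive heterochromatin, H3K4me3 marks gene starts, and H3K36me3 is laid down by SETD2 over the bodies of transcribed genes. Other kinds of shared H3K4me1 peak were used for comparison. One kind lay on H3K27ac in both sexes and on none of H3K4me3, H3K27me3 and H3K9me3 (16941 peaks, called H3K27ac-marked here), and the other lay on H3K27me3 alone of those marks (3925 peaks, called H3K27me3-marked).

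As a check of the tissue, 11 of 20 liver genes chosen for the purpose, among them Alb and Apoa1, could be placed on the coordinates of the lists. All 11 had an H3K4me3 peak and an H3K27ac peak within 1 kb of a start in the male lists and in the female lists. Of 20 genes of other tissues, 6 could be placed. The male lists held an H3K4me3 peak at 0 and an H3K27ac peak at 0 of these 6, and the female lists an H3K4me3 peak at 1 (Syn2) and an H3K27ac peak at 0.

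The DNA under these peaks can be read from a control library made with IgG from male liver, whose aligned reads are 35 bases long. The read nearest the summit is shown first for the 2 best-scoring members off H3K36me3 and the 2 best-scoring on it. The capitals mark letters of a searched motif, and reads of the minus strand are printed as read.
Outside H3K36me3, chr6:100186177-100186211, plus strand: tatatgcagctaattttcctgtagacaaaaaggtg
Outside H3K36me3, chr1:13320221-13320255, plus strand: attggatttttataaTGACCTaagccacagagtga
Inside H3K36me3, chr3:57548035-57548069, plus strand: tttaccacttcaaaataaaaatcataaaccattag
Inside H3K36me3, chr3:52084609-52084643, plus strand: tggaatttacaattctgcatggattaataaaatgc
The capitals in the second read are AGGTCA on the other strand, the half-site of many nuclear receptors. All coordinates are mm9.

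The next reads come from the members with the most extreme sex ratios, the 5 highest called male and those 3 of the 5 lowest called female for which a read is printed here. They are shown because base composition differed between male-called and female-called members as groups, as given further on.
Called male, chr14:22416264-22416298, plus strand: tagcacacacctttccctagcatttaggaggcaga
Called male, chr9:65663854-65663888, minus strand: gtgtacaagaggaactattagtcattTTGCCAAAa
Called male, chr1:22918065-22918099, minus strand: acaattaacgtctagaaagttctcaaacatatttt
Called male, chr5:143864197-143864231, plus strand: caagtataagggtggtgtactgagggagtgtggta
Called male, chr16:24330856-24330890, plus strand: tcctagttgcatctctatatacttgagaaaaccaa
Called female, chr17:46054866-46054900, minus strand: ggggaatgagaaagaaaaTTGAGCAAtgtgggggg
Called female, chr6:88242799-88242833, plus strand: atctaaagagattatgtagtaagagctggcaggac
Called female, chr2:157377062-157377096, plus strand: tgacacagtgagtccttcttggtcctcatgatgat
In the order printed, the male-called reads hold 17, 12, 9, 17 and 12 G or C bases of 35, and the female-called reads 17, 14 and 16. Single reads of the 2 groups therefore overlap. Capitals in both sets are TTGCNNAA, the core of C/EBP sites, on one strand or the other.

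H3K4me1-alone peaks were narrow and weak beside H3K27ac-marked peaks and close in size to H3K27me3-marked ones. Their median width was 1133 bp (quartiles 849 and 1563), against 2070 bp for H3K27ac-marked and 1055 bp for H3K27me3-marked peaks. The median peak held 69 tags, against 176 in H3K27ac-marked and 67 in H3K27me3-marked peaks. Per kb, the medians were 60.2 tags in H3K4me1-alone, 84.0 in H3K27ac-marked and 62.3 in H3K27me3-marked peaks. Fold enrichment over control, the authors' own value per peak, had a median of 6.05 in H3K4me1-alone peaks, 7.50 in H3K27ac-marked and 6.70 in H3K27me3-marked peaks. The median false discovery rate that the authors gave was 4.10% for H3K4me1-alone peaks, 1.41% for H3K27ac-marked and 2.94% for H3K27me3-marked peaks. Width and enrichment hardly differed with H3K36me3, at 1170 bp and 5.85-fold inside it and 1106 bp and 6.07-fold outside. A wide peak meets other lists more readily, so the overlap rules that set the kinds bear on their widths and tags. The size of that part was not tested.

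**Figure D1:**
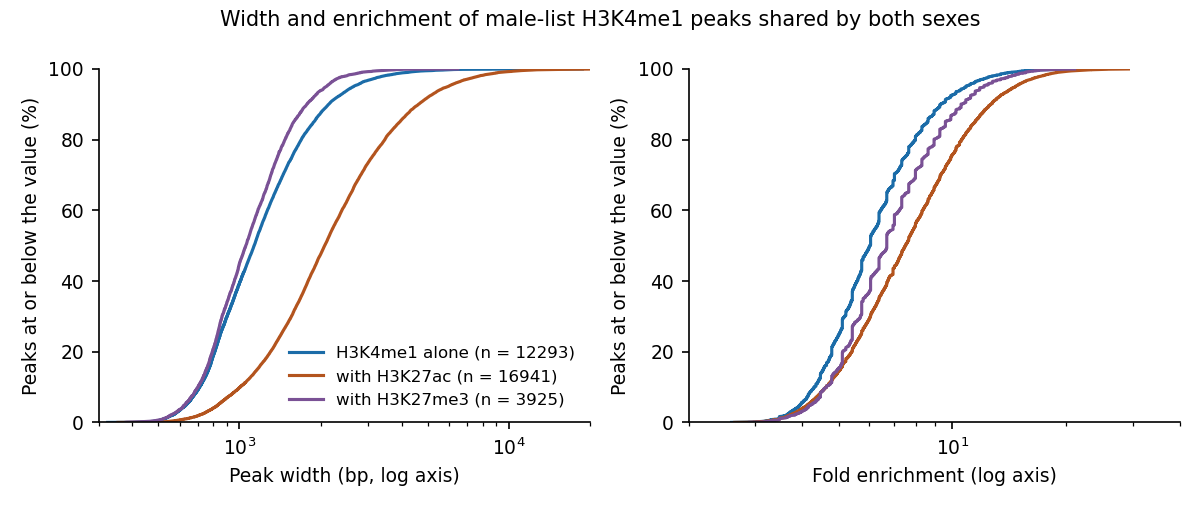
Cumulative share of peaks (y axis, percent) at or below each width (left, bp, log axis) and each fold enrichment (right, log axis), for the 12293 H3K4me1-alone, 16941 H3K27ac-marked and 3925 H3K27me3-marked peaks of the male list. The width curve of H3K4me1-alone peaks runs beside that of H3K27me3-marked peaks (medians 1133 and 1055 bp), left of H3K27ac-marked peaks (2070 bp), and their enrichment curve lies furthest left.

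Overlap with a female peak is part of the rule, and the paired peaks could still differ in size and position. The male H3K4me1 list holds 12562838 reads inside its peaks, against 20459697 in the female list. The female peak overlapping a member most had a median of 125 tags and a fold enrichment of 6.77. Summits of the pair lay a median of 220 bp apart, and 5921 members (48.2%) had summits within 200 bp of each other. More than 1 female peak overlapped 728 members.

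The number of members followed how far down each list was read. Requiring the male peak to be among the better-scoring 50% of its list left 3299, and counting only the better-scoring 50% of each other mark's list gave 25054. At the edge of the rule, 462 members (3.76%) had another mark within 200 bp and 2228 (18.1%) within 1 kb, while 445 shared peaks were left out through an overlap of 200 bp or less. The members nearest the edge touched a neighbour end to end, as at chr5:77696601-77697487 beside an H3K27ac peak (fold enrichment 9.26), and the nearest non-member overlapped an H3K27ac peak by 1 bp, at chr5:146893416-146894090 (fold enrichment 6.07).

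H3K36me3, a mark of transcribed gene bodies, covered a large share of H3K4me1-alone peaks. Of the 12293, 42.8% (41.9 to 43.7) overlapped a male island, against 38.9% (38.2 to 39.6) of H3K27ac-marked and 1.71% (1.33 to 2.16) of H3K27me3-marked peaks, and 34.1% of all shared peaks. H3K27ac-marked peaks were the wider kind. In 3945 members the whole peak lay inside an island, and in 1315 part of it did. The female H3K36me3 list gave nearly the same division: 4601 members (37.4%) lay on H3K36me3 in both lists, 659 in the male list alone, 912 in the female list alone and 6121 (49.8%) in neither. By chromosome the share inside male H3K36me3 ran from 32.5% on chromosome 8 to 51.8% on chromosome 16.

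The share on H3K36me3 was also set out by base composition. GC content was taken from the IgG reads in each peak, for the 7419 members and 14590 H3K27ac-marked peaks with 3 or more reads. Under 38% GC, 52.3% (50.1 to 54.4) of members lay on H3K36me3, against 45.7% (43.9 to 47.5) of H3K27ac-marked peaks. From 38% to 46% GC the shares were 43.3% (41.6 to 45.0) and 41.3% (40.2 to 42.5), with overlapping intervals. Over 46% GC they were 35% (32.9 to 37.1) and 35.4% (34.1 to 36.8). Peaks with fewer than 3 reads, which have no GC value here, showed the widest gap, at 41.8% of 4874 members and 30.4% of 2351 H3K27ac-marked peaks.

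Most H3K4me1-alone peaks had H3K27ac within 25 kb, as did most of all shared peaks. The median gap to the nearest H3K27ac peak of either sex was 5102 bp, against 24237 bp for H3K27me3-marked peaks. Of the members, 1946 (15.8%) had H3K27ac within 1 kb, 6071 (49.4%) within 5 kb, 10417 (84.7%) within 25 kb and 11922 (97.0%) within 100 kb. For all shared peaks, many of which overlap H3K27ac, the shares were 91.8% within 25 kb and 97.9% within 100 kb. Members inside H3K36me3 were nearer to H3K27ac (median 4022 bp) than members outside (6202 bp). H3K4me3 lay a median of 18830 bp away, H3K27me3 60449 bp and H3K9me3 90503 bp. Since members were defined by having no overlap with these marks, the gaps describe their surroundings and carry no test, and the H3K27ac gap grew to 10542 bp when only the better-scoring 50% of the other lists were counted.

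**Figure D2:**
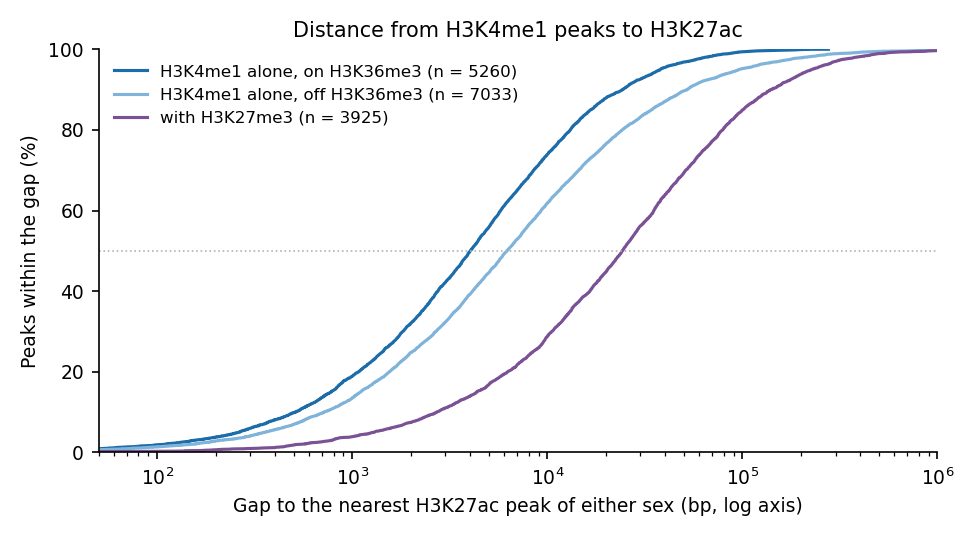
Cumulative share of peaks (y axis, percent) whose gap to the nearest H3K27ac peak of either sex is at or below the value on the x axis (bp, log axis), for 5260 H3K4me1-alone peaks on male H3K36me3, 7033 off it and 3925 H3K27me3-marked peaks. The curves cross the dotted 50% line at 4022, 6202 and 24237 bp.

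Groups of members were formed by joining members with 5 kb or less between them, without other H3K4me1 peaks. Of the members, 7641 (62.2%) then stood alone, against 48.4% of H3K27ac-marked and 79.9% of H3K27me3-marked peaks joined in the same way. These shares ran in the reverse order of the numbers of peaks, 12293, 16941 and 3925. There were 100 groups of 5 or more members. The largest, of 13 members in 36.8 kb at chr8:129667565-129704354, lay wholly outside H3K36me3, between the placed starts of Rbm34 and Nrp1. Pard3, a cell polarity gene, is the other protein-coding gene between them in the RefSeq order. A group of 12 lay inside Med13l at chr5:119075181-119105660, also with 0 members on H3K36me3. A group of 10 at chr16:94799234-94840519 reached into the start of the kinase gene Dyrk1a, with 2 members on H3K36me3. Another 10, at chr5:24973014-24996501, lay 25.4 kb from the start of Cct8l1, in an interval that RefSeq order gives to Kmt2c, which encodes a methyltransferase of H3K4me1 itself. The median log2 male over female ratio of those 10 was 0.57 in the authors' deposited table.

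Gene starts could be placed for 8181 of 16457 autosomal protein-coding genes (49.7%), by matching IgG reads to RefSeq promoter sequences, so gene counts are lower bounds and an unnamed gene may lie nearer. H3K4me1-alone peaks seldom held a gene start: 41 members (0.334%, 0.239 to 0.452) held a placed start, against 0.443% (0.348 to 0.555) of H3K27ac-marked peaks, 3.87% (3.29 to 4.52) of H3K27me3-marked peaks and 4.58% of all shared peaks. The lack of H3K4me3 in the rule bears directly on that share, and H3K27ac-marked peaks lack it too. A placed start lay within 10 kb of 12.2% (11.6 to 12.8) of members, against 13.0% (12.5 to 13.5) of H3K27ac-marked peaks. The span of a placed gene held 33.6% (32.8 to 34.5) of members, 44.5% of those on H3K36me3 and 25.5% of those off it. For H3K27ac-marked peaks the share was 27.7% (27.1 to 28.4), with 43.6% of those on H3K36me3 and 17.7% of those off it. It was 15.4% for H3K27me3-marked peaks and 29.7% for all shared peaks.

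A span here runs from the placed start over the gene's RefSeq length. Of the 8181 placed genes, 1661 (20.3%) held a member, 207 held 5 or more and 41 held 10 or more, with a mean of 1.15 members per 100 kb over all spans. The genes below were picked as those with the most members, after their values were seen, and long genes hold more peaks of any kind.

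Foxp1, which encodes a forkhead transcription factor, had the most, with 42 members among 66 shared H3K4me1 peaks in 596 kb, 22 of them on H3K36me3. Med13l, for a subunit of the Mediator kinase module, had 32 of 42 in 205 kb, or 15.6 per 100 kb, and only 4 of them lay on H3K36me3. Foxn3, another forkhead gene, had 25 of 53. Chchd3, for a protein of mitochondrial cristae, had 23 of 27, with 18 on H3K36me3. Ptprk, a receptor tyrosine phosphatase gene, also had 23, of 43 shared peaks.

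Jarid2, which encodes an accessory subunit of Polycomb repressive complex 2, had 21 of 26 shared peaks in 191 kb. None of the 26 was H3K27ac-marked, a kind that leaves out peaks on H3K4me3 and peaks without H3K27ac in both sexes. Rora, for a nuclear receptor of the circadian clock, had the same number of members, 21, but of 53 shared peaks, 20 of which were H3K27ac-marked, and only 2 members lay on H3K36me3. Rabgap1l had 21 of 27, Immp2l 20 of 29, Camk1d 19 of 32, Pid1 17 of 29 and Trio 17 of 31. H3K36me3 covered from 8.72% of the span, in Rora, to 77.1%, in Chchd3. Of the 41 genes with 10 or more members, H3K36me3 covered at least 50% of the span in 25 and less than 10% in 5.

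**Figure D3:**
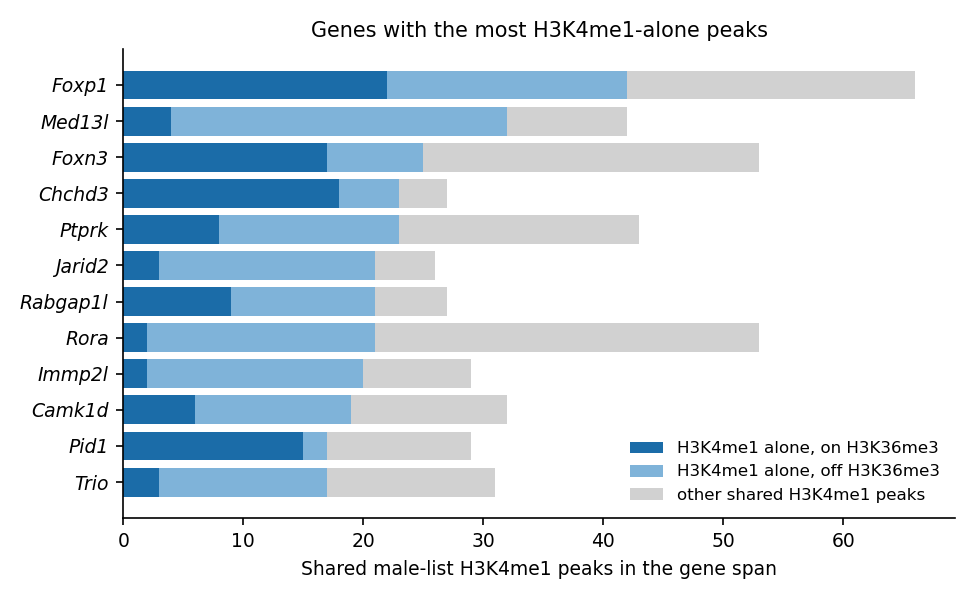
Number of shared male-list H3K4me1 peaks (x axis) in the span of each of the 12 placed genes with the most H3K4me1-alone peaks, divided into H3K4me1-alone peaks on male H3K36me3, those off it and all other shared peaks. Foxp1 leads with 42 H3K4me1-alone peaks of 66, and Med13l, Ptprk, Jarid2, Rabgap1l, Rora, Immp2l, Camk1d and Trio have most of theirs off H3K36me3.

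Per unit of length, the densest of the 207 placed genes with 5 or more members was Bdh1, for the liver mitochondrial enzyme that makes the ketone body beta-hydroxybutyrate, with 8 members in 36.6 kb (21.9 per 100 kb), all on H3K36me3. Gna13, a G protein alpha subunit gene, followed with 7 in 38.6 kb, Eif4e, for the cap-binding translation factor, with 6 in 33.5 kb, and Crkl, for a signalling adaptor, with 6 in 35.5 kb. Eif4e, Crkl and Arih2, a ubiquitin ligase gene with 6 members, had no H3K27ac-marked peak in their spans. That kind leaves out peaks on H3K4me3 and peaks without H3K27ac in both sexes, so H3K27ac may still lie in these spans.

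The members with the best scores were unlike the typical one. The best outside H3K36me3, chr6:100182553-100188351, was 5799 bp wide with 711 tags, a fold enrichment of 19.8 and 35.7 kb to the nearest H3K27ac peak. It lay in the interval between Prok2 and Shq1, where RefSeq order puts Rybp, a Polycomb repressive complex 1 subunit gene. The best inside H3K36me3, chr3:57543229-57549723, had 684 tags and a fold enrichment of 15.18, and H3K27ac lay 0.787 kb off. Its false discovery rate in the deposited list was 26.58%. The 5 best outside H3K36me3 had rates of 7.77% to 15.81%, also above the members' median of 4.10%.

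Within Nr5a2, which encodes the nuclear receptor LRH-1 that acts on bile acid genes in liver, a member 18028 bp wide at chr1:138820214-138838241 held 2651 tags, and H3K27ac began 0.267 kb from it. A member of 6003 bp at chr4:137450831-137456833, 12.6 kb from the start of Ece1, the endothelin-converting enzyme gene, had H3K27ac 117 bp away in the male list and 297 bp in the female list. The widest member of all, chr4:130255656-130274422, spanned 18767 bp with 2689 tags.

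Of the 41 members at placed starts, the 3 with the best scores were at Gm12657, Derl3 and Adamtsl5. Derl3, for a protein of endoplasmic reticulum-associated degradation, had a peak at chr10:75355974-75357040 with a fold enrichment of 20.75 and 134 tags, 8.65 kb from H3K27ac and 11 kb from H3K4me3. Adamtsl5, a gene of the ADAMTS-like secreted proteins, had one at chr10:79810225-79812503 with a fold enrichment of 10.54, and another best-scoring member, chr10:79803739-79807935, lay in its span. The promoters of these 3 are printed to show how far such starts differ in CG pairs. All are from RefSeq on GRCm38.p6, 250 bases before the start and 50 after it, with AGGTCA of either strand in capitals.
Gm12657, start at base 94260342 of chromosome 4 in mm9, plus strand: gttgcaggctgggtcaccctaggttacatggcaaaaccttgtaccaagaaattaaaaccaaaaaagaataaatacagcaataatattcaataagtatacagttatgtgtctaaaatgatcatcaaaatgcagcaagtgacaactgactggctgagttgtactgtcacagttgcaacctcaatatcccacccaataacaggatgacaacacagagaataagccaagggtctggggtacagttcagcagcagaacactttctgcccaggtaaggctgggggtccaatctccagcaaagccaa
Derl3, start at base 75356144 of chromosome 10 in mm9, plus strand: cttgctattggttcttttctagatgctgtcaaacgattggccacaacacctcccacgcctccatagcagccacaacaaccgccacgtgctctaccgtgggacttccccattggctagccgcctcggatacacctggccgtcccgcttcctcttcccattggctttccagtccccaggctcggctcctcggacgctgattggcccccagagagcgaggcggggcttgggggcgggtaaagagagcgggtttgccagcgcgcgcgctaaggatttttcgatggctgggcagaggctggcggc
Adamtsl5, start at base 79811194 of chromosome 10 in mm9, minus strand: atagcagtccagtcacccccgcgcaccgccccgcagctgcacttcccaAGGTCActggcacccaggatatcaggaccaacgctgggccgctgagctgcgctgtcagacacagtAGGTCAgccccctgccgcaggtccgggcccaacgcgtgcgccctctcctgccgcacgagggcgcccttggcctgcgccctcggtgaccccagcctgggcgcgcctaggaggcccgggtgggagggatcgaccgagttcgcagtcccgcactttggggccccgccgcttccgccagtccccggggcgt
The Gm12657 promoter is 42.7% G or C with 0 CG pairs, that of Derl3 62% with 22 and that of Adamtsl5 72% with 29, against medians of 52.7% and 7 over 32851 RefSeq promoters. The next 2 genes by score, Tmcc3 and Rsph14, have 2 placed promoters each, with 3 and 6 CG pairs and with 8 and 7. AGGTCA stands in 16.3% of those promoters on either strand.

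In base composition, H3K4me1-alone peaks were close to H3K27ac-marked peaks. The IgG reads in them were 42.0% G or C (40.9% on H3K36me3, 42.9% off it), against 42.9% in H3K27ac-marked peaks, 47.7% in H3K27me3-marked peaks and 39.3% over all autosomal reads. CG pairs numbered 0.821 per 100 bases in members, 0.866 in H3K27ac-marked peaks, 2.03 in H3K27me3-marked peaks and 0.688 over all autosomal reads. Letters of HNF4 sites (CAAAGTCCA, a liver nuclear receptor) stood in 0.0877% (0.0637 to 0.118) of the 50197 reads in members, in 0.104% (0.0880 to 0.121) of those in H3K27ac-marked peaks and in 0.0390% of all autosomal reads. In all shared peaks the share was 0.0882% (0.0795 to 0.0975), and in H3K27me3-marked peaks 0.0763% (0.0349 to 0.145). The AGGTCA half-site stood in 2.33% (2.20 to 2.47) of reads in members, 2.57% (2.49 to 2.65) in H3K27ac-marked peaks and 1.75% of all autosomal reads. It stood in 2.36% (2.31 to 2.41) of reads in all shared peaks and 2.72% (2.43 to 3.03) in H3K27me3-marked peaks. For HNF4 and AGGTCA letters, the higher share than in all autosomal reads was therefore not particular to members. Forkhead letters (TGTTTAC) stood in 0.641% (0.574 to 0.715) of reads in members, 0.632% (0.593 to 0.674) in H3K27ac-marked peaks and 0.533% of all. The forkhead share was 0.584% (0.561 to 0.607) in all shared peaks and 0.686% (0.545 to 0.852) in H3K27me3-marked peaks, so it was not particular to members either. C/EBP letters (TTGCNNAA) stood in 1.5% (1.40 to 1.61) of reads in members, 1.76% (1.70 to 1.83) in H3K27ac-marked peaks and 1.53% of all. Both strands were searched, motifs may overlap, and a match is a description of letters, not of a bound site.

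The sex comparison asked whether these peaks carry more H3K4me1 in one sex. In the authors' deposited table each peak has a log2 male over female ratio, a p-value and a call of male or female at an absolute ratio of at least 1 with p below 0.001. The authors' deposited table called 303 members male (2.46%, 2.20 to 2.75), where 8.21% of all male H3K4me1 peaks and 1.89% of shared ones were called male. It called 93 members female (0.757%, 0.611 to 0.926), where the share was 0.501% of all male H3K4me1 peaks and 0.589% of shared ones. H3K27ac-marked peaks had 365 male calls (2.15%, 1.94 to 2.38) and 119 female calls (0.702%, 0.582 to 0.840) in the authors' deposited table, with intervals that overlap those of the members. H3K27me3-marked peaks had 67 male calls (1.71%, 1.33 to 2.16) and 26 female calls (0.662%, 0.433 to 0.969) in the authors' deposited table. Over all scores, both shares of the members were close to, and a little above, those of all shared peaks. Members held low scores more often, and in the better score groups of 25% of shared peaks the male calls of the authors' deposited table stood further apart. A list's score and the ratio draw on the same reads, so score groups and calls are not independent. In score group 1, the lowest, 1.11% of members on H3K36me3 and 0.608% off it were called male in the authors' deposited table, against 0.616% of shared peaks. In score group 3, 7.91% of members on H3K36me3 and 6.78% of those off it were called male in the authors' deposited table, against 3.02% of shared peaks. In score group 4, the best, the shares from the authors' deposited table were 11% on and 5.96% off H3K36me3, against 2.84% of shared peaks. H3K27me3-marked peaks also lay above shared peaks, with 4.13% called male in score group 3 and 6.45% in score group 4 in the authors' deposited table. In members built from the female list, 0% of score group 4 were called male and 5.70% female in the authors' deposited table, against 0.0404% and 1.21% of shared peaks. For H3K27me3-marked peaks of the female list the shares in that group were 0% and 8.81% in the authors' deposited table.

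The median ratio of members was 0.12 (quartiles −0.18 and 0.43) in the authors' deposited table, against 0.02 for H3K27ac-marked peaks, 0.11 for H3K27me3-marked peaks and 0.07 for all shared peaks. On H3K36me3 the members' median was 0.20 in the authors' deposited table, and off it 0.06. For H3K27ac-marked peaks the corresponding medians from the authors' deposited table were 0.05 and 0.00. Male calls in the authors' deposited table fell on 150 members inside H3K36me3 (2.85%, 2.42 to 3.34) and 153 outside (2.18%, 1.85 to 2.54). Female calls from the authors' deposited table numbered 23 inside (0.437%, 0.277 to 0.655) and 70 outside (0.995%, 0.777 to 1.26).

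The ratio moved with base composition. Among members with 3 or more IgG reads, the median ratio in the authors' deposited table was 0.44 under 38% GC, 0.21 from 38% to 46% and −0.10 over 46%. Male calls of the authors' deposited table fell on 144 of 2044 members (7.05%), 86 of 3276 (2.63%) and 11 of 2099 (0.524%) in the same order of bins. Female calls of the authors' deposited table fell on 1 member under 38% GC (0.0489%), 3 from 38% to 46% (0.0916%) and 26 over 46% (1.24%). Members with fewer than 3 IgG reads held 62 of the 303 male calls (1.27% of 4874) and 63 of the 93 female calls (1.29%) in the authors' deposited table, so most female calls lie outside the bins. H3K27ac-marked peaks showed the same order, with medians from the authors' deposited table of 0.43, 0.11 and −0.24. The gap between members on and off H3K36me3 was smaller within bins, at 0.47 and 0.41 under 38% GC, 0.26 and 0.17 from 38% to 46% and −0.05 and −0.14 over 46% in the authors' deposited table. The part of GC content in the calls was not tested.

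**Figure D4:**
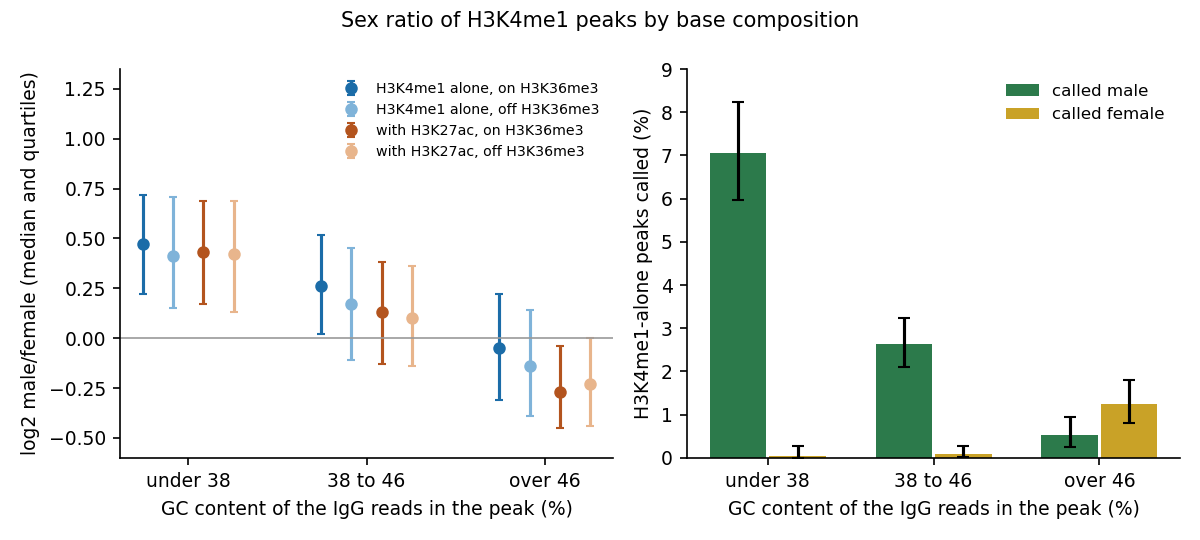
Left, median log2 male over female ratio of the authors' deposited table (y axis, bars from lower to upper quartile) by GC content of the IgG reads in the peak (x axis, percent), for H3K4me1-alone and H3K27ac-marked peaks on and off male H3K36me3. Right, percent of H3K4me1-alone peaks called male or female by the authors in each bin, with Clopper-Pearson 95% intervals. Medians lie above 0 under 38% GC and below 0 over 46% in all 4 kinds, and male calls drop to 0.524% from 7.05% as GC rises.

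Over whole call groups, the 1882 IgG reads in male-called members were 36.6% G or C, the 201 in female-called members 50.5% and the 48114 in uncalled members 42.2%. The density of IgG reads was 3.82 per kb in male-called members and 2.28 per kb in female-called ones, against 3.14 per kb in uncalled ones. All these reads come from male liver and no female control was read here, so a part of sex in the densities was not tested. Male-called members were also broader, with a median width of 1465 bp and 121 tags, female-called ones narrower, with 915 bp and 50 tags, against 1128 bp and 69 tags in uncalled ones.

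The list from which a peak was taken also moved with its ratio. In the male list, members in score group 4, the best 25% of shared peaks, had median ratios of 0.41 on H3K36me3 and 0.25 off it in the authors' deposited table. Members built in the same way from the female list (11685 peaks) had −0.32 and −0.41 in their score group 4 in the authors' deposited table. Over all scores the female-list members had medians of 0.13 on and 0.04 off H3K36me3 in the authors' deposited table, so the higher ratio on H3K36me3 was present in both lists. For 10599 members (86.2%) the ratio had the same sign at the overlapping female peak in the authors' deposited table. Of the 303 male-called members, the overlapping female peak was called male in 140 and uncalled in 163, and of the 93 female-called members it was called female in 51 and uncalled in 42, all from the authors' deposited table. Ratios of both lists compare the same H3K4me1 libraries over overlapping peaks, and both divisions use the male H3K36me3 islands. Agreement between the lists is therefore not independent support.

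**Figure D5:**
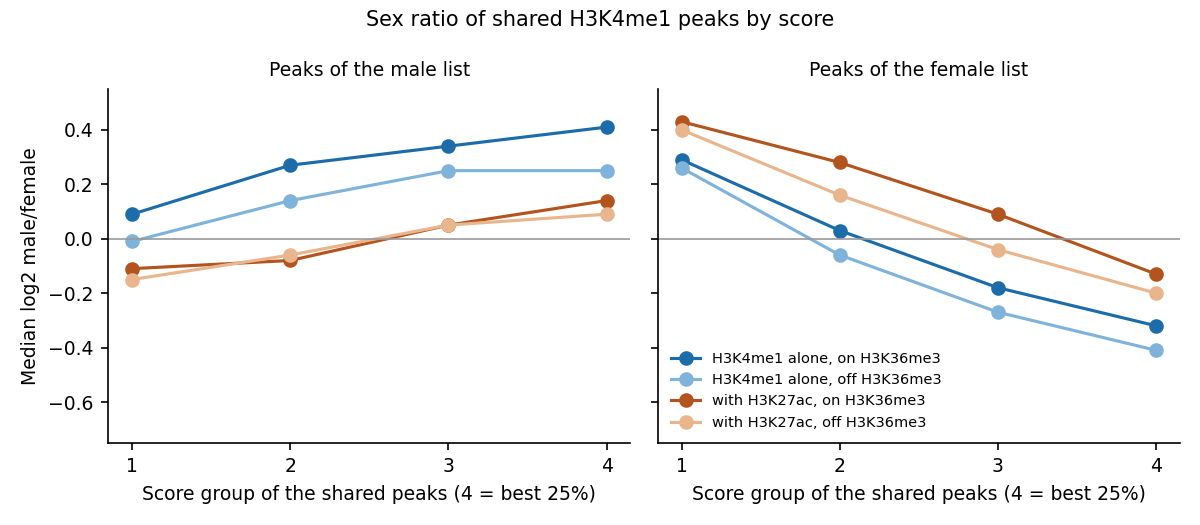
Median log2 male over female ratio of the authors' deposited table (y axis) by score group of shared H3K4me1 peaks (x axis, 4 groups of 25% each, 4 is best), for peaks of the male list (left) and of the female list (right). Lines climb with score in the male list, to 0.41 and 0.25 for H3K4me1-alone peaks on and off male H3K36me3, and descend in the female list, to −0.32 and −0.41.

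The neighbours of called members were read for calls of active marks. In the male lists of the authors' deposited table, 1.74% of H3K27ac, 4.46% of H3K4me3 and 0.556% of H3K36me3 regions were called male, and 0.861%, 0.499% and 0.0353% in that order of marks were called female. In the female lists of the authors' deposited table, 0.608%, 1.34% and 0.00525% were called male, and 3.02%, 1.25% and 0.451% were called female. Taking male-called or female-called H3K27ac, H3K4me3 and H3K36me3 peaks of either list from the authors' deposited table, 18 of 303 male-called members (5.94%, 3.56 to 9.23) had a male-called one within 25 kb, against 450 of 11897 uncalled members (3.78%, 3.45 to 4.14). For female-called members, 13 of 93 (14.0%, 7.66 to 22.7) had a female-called one in the authors' deposited table, against 565 of 11897 uncalled members (4.75%, 4.37 to 5.15). The male interval takes in part of the uncalled range, and the female interval lies above it. Members close together can share the same called neighbour, and these intervals take each member as separate, so they are no test. For calls of the other sex, 4 of 93 female-called members (4.30%, 1.18 to 10.6) had a male-called neighbour in the authors' deposited table. That interval takes in the 5.94% of male-called members. A female-called neighbour stood by 3 of 303 male-called members (0.990%, 0.205 to 2.87) in the authors' deposited table, against 4.75% of uncalled members. Among all shared peaks called male in the authors' deposited table, 20.9% (18.6 to 23.3) had a male-called active neighbour, and among those called female, 26.7% (22.3 to 31.5) had a female-called one. Shared peaks may lie on a called H3K27ac or H3K4me3 peak, which the rule bars for members, so these shares are not comparable with the members' own. Male-called members stood a median of 10466 bp from H3K27ac and female-called ones 4568 bp, against 5038 bp for uncalled members.

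The single members with the most extreme ratios were mostly small. Tags of paired peaks, here and below, are raw counts over peaks of unequal width from lists of unequal depth, so they do not give the sex ratio. By the authors' deposited table the highest ratio was 2.11, at chr14:22416024-22416497, a peak of 24 tags whose overlapping female peak had a ratio of 0.68 and no call. The second, 2.01 in the authors' deposited table at chr9:65663776-65664408, had 33 tags and met the edge of a female peak of 1583 tags with a ratio of 0.15. The third was larger: chr1:22917284-22919667 held 256 tags, against 63 in the overlapping female peak, with ratios of 1.81 and 1.67 in the authors' deposited table and male calls in both lists. It lay 82.9 kb from H3K27ac, and the GC content of its 6 IgG reads was 24.8%. At chr16:24330621-24331871, between Bcl6, a transcriptional repressor gene, and Lpp, a member held 119 tags, against 39 in the female peak, with ratios of 1.75 and 1.29 and male calls in both lists of the authors' deposited table.

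Among female-called members, the most extreme was chr17:46054503-46055458, 114 kb from Vegfa, the gene of an endothelial growth factor, with 50 tags, against 454 in the overlapping female peak, and ratios of −1.75 and −1.55 in the authors' deposited table. At chr2:157375674-157377243, 14.9 kb from Blcap with the imprinted gene Nnat between in RefSeq order, the male peak held 86 tags, against 809 in the female peak, with ratios of −1.57 and −1.39 in the authors' deposited table. At chr6:88242417-88243200, 98.5 kb from Gata2, a blood and endothelial transcription factor gene, the ratios were −1.57 and −1.68 in the authors' deposited table, with 38 tags in the male peak, against 266 in the female one. This member lay on a male H3K36me3 island of 10.2 kb, and RefSeq order puts Dnajb8 and Eefsec between Gata2 and Ruvbl1. These 3 members were called female in both lists, and in each pair the female peak was the wider.

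Of the 41 members at placed starts, the authors' deposited table called 2. The peak at Mup6, of the major urinary protein family secreted at higher levels by males, had a ratio of 1.05 with a male call and 85 tags, against 57 in the female peak, in the authors' deposited table. The family has near-identical copies, so the assignment to Mup6 is uncertain. The peak at Aifm2, which encodes a suppressor of ferroptosis, had a ratio of −1.36 with a female call in the authors' deposited table. It held 57 tags, against 770 in the female peak, which was wider.

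Sex ratios were also read within the genes rich in members. Median ratios of the members in the 12 genes named first ran from −0.16 in Trio to 0.55 in Immp2l in the authors' deposited table. Jarid2 was next highest, with a median of 0.53 and members from −0.15 to 1.27 in the authors' deposited table. By chromosome the members' median ran from 0.04 on chromosome 17 to 0.22 on chromosome 18 in the authors' deposited table, and was above 0 on all 19. The median of all shared peaks was 0.07 in the authors' deposited table. Chromosomes 7 and 15, each at 0.06, and chromosome 17 lay below that value.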

How the data were processed

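ChIP-seq of 6 histone marks in male and female liver was deposited as peak lists. All libraries of 1 mark and 1 sex carry the same file to the byte, which left 12 pooled lists. The submitters' processing notes name mm9 as the build and Bowtie and SICER 1.1 as tools. Per the labels, the SICER window and gap were 200 bp and 800 bp for H3K36me3, and 400 bp and 2400 bp for H3K27me3 and H3K9me3. The caller of the other marks has the column names of MACS, with a version not given in the sources used here. Tag counts are raw counts deposited by the authors. Fold enrichment (a ratio to control), the false discovery rate in percent and the score of minus 10 times log10 of the p-value are the authors' own, per the file headers. The highest scores are written as 3100. The log2 sex ratio and the sex p-value are also the authors' deposited values, with a normalisation not given in the sources used here. They come from pooled reads, so the p-values hold no variation from animal to animal.

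Overlap of 1 bp or more, edge gaps and counts were computed with Python 3.11.15, numpy 2.4.6, pandas 2.3.3 and scipy 1.17.1, after the interval functions had been checked against direct enumeration on simulated intervals. The IgG library, from male CD-1 liver, belongs to a record with its own labels, which also name mm9 in the submitters' processing notes. Its 11201113 reads were reduced to 6797798 with 1 per position and strand. With no mm9 annotation at hand, gene starts were placed by exact matches of 35-base IgG reads to RefSeq promoters of 300 bases. Of 31396 autosomal promoters, 14267 were placed and 25 more were dropped for breaking the order along the chromosome. Of the 9254 placed protein-coding starts, 60.0% lay inside a male H3K4me3 peak. This step was added after the files were seen. Single regions were named by a rule: the 5 best scores inside and the 5 outside H3K36me3, the 5 largest ratios called male and the 5 called female, the widest, and those at the edge of the rule, of which some are given by range. Genes, groups and promoters were picked after their values were seen. The members, kinds and motif letters were chosen with earlier results of these data known. GC bins, too, were chosen after seeing the data. Alternatives changed the sharing rule, the other lists, the distances and the centre of the ratios. Sex chromosomes were not analysed here.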

Additional observations from a re-analysis of the deposited data

How the results depend on the processing

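No paired analysis was possible because each mark and sex has 1 pooled list and no library values. Leaving out a replicate was not possible for the same reason. Of 83 values recomputed, 34 stayed within the main value's 95% interval (for the number of peaks, within 1.5 times), 48 moved and 1 changed sign. The cause of each move was not tested beyond what the alternative's construction shows. Of these, 12 came from GC bins added after seeing the data.

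The number of H3K4me1-alone peaks, 12293, was 3299 from the better-scoring 50% of the male H3K4me1 list and 25054 when the other marks came from the better-scoring 50% of their lists. Building the members from the female list gave 44.1% on H3K36me3, a male share of 1.93% and an H3K27ac gap of 5353 bp. Reciprocal overlap of 50% gave 39.7% on H3K36me3, 1.64% called male, 0.328% called female and a gap of 6632 bp. With no other mark within 1 kb the gap was 6850 bp. The better-scoring 50% of the H3K4me1 list gave 6.4% called male, 0.0909% called female, a gap of 5951 bp and female-called neighbours at 33.3%, which is 1 of 3 female-called members. Other marks from the better-scoring 50% of their lists gave 38.6% on H3K36me3, a gap of 10542 bp and male-called neighbours at 10% of male-called members. Other marks from the male lists gave 40.6% on H3K36me3, 0.930% called female, a gap of 4154 bp and female-called neighbours at 26.6%. At least 50% of the peak inside H3K36me3 was met by 37.2%, and the female H3K36me3 list gave 44.8%. Centring the ratios on shared peaks, a shift of 0.07 on the log2 scale, gave 1.72% called male and 1.19% called female. Male-called neighbours within 10 kb and 100 kb stood at 3.30% and 15.8%, and female-called ones at 7.53% and 24.7%. In uncalled members the shares were 1.46% and 13.5% for male-called neighbours, and 2.23% and 15.1% for female-called ones.

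By GC content under 38% and over 46%, 52.3% and 35% lay on H3K36me3, and 7.05% and 0.524% were called male. Under 38%, from 38% to 46% and over 46% GC, 0.0489%, 0.0916% and 1.24% were called female. The median ratio of the authors' deposited table was −0.10 over 46% GC, and from 0.08 to 0.29 in the alternatives other than GC bins. The median fold enrichment ran from 6.06 to 8.20. Only 3 or more IgG reads allowed a GC value, which 4874 members lacked.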
